A study of Arabidopsis thaliana with 4 samples.

Results

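The 10 genes described here make and perceive salicylate (salicylic acid), a defence hormone of plants. They were taken by gene identifier from a table of 33602 Arabidopsis thaliana genes, and all 10 were in it. Whole seedlings of the Col-0 ecotype, aged 14 days, had been grown in hydroponic medium without nitrogen. The glutamate group (2 libraries) was harvested 0.5 h after a transfer to the same nitrogen-free salts with 2.5 mM glutamate, and the 0 h group (2 libraries) had no glutamate. The series asked which genes respond early to glutamate. It holds no library from seedlings given fresh medium alone, so the effect of glutamate and that of the transfer and the elapsed time cannot be told apart. Nothing in the labels ties the replicates to separate cultures. The p-values therefore measure library-to-library spread alone, part or all of which may be technical.

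As background, Arabidopsis under attack makes most of its salicylate from chorismate. ICS1 (isochorismate synthase) forms isochorismate in the plastid, EDS5 exports it, PBS3 joins it to glutamate in the cytosol, and the conjugate breaks down to salicylate, a step that EPS1 speeds up. The transcription factors CBP60g, which binds calmodulin, and its homologue SARD1 bind the promoters of ICS1 and other genes of this route. Salicylate is perceived by NPR1, a co-activator of defence genes, and by NPR3 and NPR4, which act as co-repressors. NIMIN1 binds NPR1 and restrains it. The NPR proteins bind TGA transcription factors and reach DNA through them.

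After 0.5 h of glutamate, transcripts of the synthesis genes ICS1, EDS5 and PBS3, of both regulators CBP60g and SARD1 and of the receptors NPR1 and NPR3 were higher, and those of the receptor NPR4 were lower. Of the 9 members that could be tested, 7 rose and 1 fell at an adjusted p under 0.05 in limma, with Benjamini-Hochberg adjustment over the 17750 genes whose mean reached 1 RPKM (a read count scaled to gene length and library size, here with the authors' TMM factors). Over all tested genes 16.3% rose and 14.6% fell. Among the 7 that rose, 6 rose at least 2-fold, as did 10.3% of all tested genes, and NPR4 fell by more than that, as did 4.75%. The median log2 change was 3.08 over the 9 members and -0.06 over all tested genes. EPS1 did not pass the test, and NIMIN1, at a mean of 0.460 RPKM, lay below the minimum and was not tested. The members were chosen with results of these data known. In whole seedlings a higher level per cell and a larger number of expressing cells cannot be told apart.

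The promoters of 4 members that rose, 2 synthesis genes and the 2 regulators, are shown first, because the NPR proteins, WRKY factors, CBP60g and SARD1 are known to act at such sequences. Each window runs from 250 bases before to 50 bases after the gene start of the RefSeq annotation of TAIR10.1, read on the strand of the gene. Capitals mark matches, on either strand, to TTGAC (core of the W box of WRKY factors), TGACG (bound by TGA factors), GAAATTT (bound by CBP60g and SARD1), CGCGT (bound by CAMTA factors) or CACGTG (the G box). TTGAC and TGACG can overlap. The windows are chr1:28070045-28070344 (+ strand) for ICS1, chr5:4267206-4267505 (+ strand) for PBS3, chr5:9475429-9475728 (+ strand) for CBP60g and chr1:27749199-27749498 (- strand) for SARD1.
ICS1 promoter: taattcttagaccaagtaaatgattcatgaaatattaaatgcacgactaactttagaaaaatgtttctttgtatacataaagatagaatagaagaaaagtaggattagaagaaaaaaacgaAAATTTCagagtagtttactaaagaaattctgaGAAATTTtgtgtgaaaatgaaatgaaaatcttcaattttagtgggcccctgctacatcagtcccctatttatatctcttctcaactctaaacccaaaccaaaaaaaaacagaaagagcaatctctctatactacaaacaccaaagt
PBS3 promoter: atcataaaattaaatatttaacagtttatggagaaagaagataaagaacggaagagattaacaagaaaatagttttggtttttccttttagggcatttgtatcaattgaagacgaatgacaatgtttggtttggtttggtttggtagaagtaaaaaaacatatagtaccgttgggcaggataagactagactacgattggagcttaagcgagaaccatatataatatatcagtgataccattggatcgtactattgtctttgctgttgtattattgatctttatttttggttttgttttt
CBP60g promoter: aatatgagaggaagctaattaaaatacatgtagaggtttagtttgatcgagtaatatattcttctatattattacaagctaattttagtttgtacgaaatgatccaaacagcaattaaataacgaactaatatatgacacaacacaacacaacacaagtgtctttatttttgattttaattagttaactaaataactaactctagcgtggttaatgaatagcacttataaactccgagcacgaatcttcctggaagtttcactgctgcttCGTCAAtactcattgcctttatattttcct
SARD1 promoter: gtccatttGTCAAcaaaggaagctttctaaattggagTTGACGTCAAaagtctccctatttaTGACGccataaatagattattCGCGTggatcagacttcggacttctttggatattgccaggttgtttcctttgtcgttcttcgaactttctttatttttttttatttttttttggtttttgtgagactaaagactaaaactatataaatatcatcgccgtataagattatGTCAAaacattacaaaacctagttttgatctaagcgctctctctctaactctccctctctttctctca

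ICS1 had 2 matches to GAAATTT, a motif found at least 1 time in 14.2% of the 27437 promoter windows of protein-coding genes. SARD1 had 4 matches to TTGAC and 3 to TGACG, some of them overlapping, and 1 to CGCGT. CBP60g had a TTGAC and a TGACG match that overlap and start at bases 22 and 21 of the RefSeq gene. PBS3 had no match to any of the 5 motifs in this window. TTGAC was present in 5 of the 10 members and in 50.5% of all windows, and TGACG in 4 members and in 23.1% of windows. GAAATTT and CGCGT were each present in 1 member, and CGCGT in 8.7% of all windows. CACGTG was found in 7.68% of all windows and in no member window. The receptor genes with opposite changes, NPR3 at chr5:18228518-18228817 (+ strand) and NPR4 at chr4:10698762-10699061 (- strand), are set side by side.
NPR3 promoter: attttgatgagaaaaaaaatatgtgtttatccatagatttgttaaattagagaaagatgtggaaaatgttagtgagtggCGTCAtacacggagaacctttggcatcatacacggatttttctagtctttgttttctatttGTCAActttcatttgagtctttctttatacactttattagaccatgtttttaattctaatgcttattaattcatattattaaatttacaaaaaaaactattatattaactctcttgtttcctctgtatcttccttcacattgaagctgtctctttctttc
NPR4 promoter: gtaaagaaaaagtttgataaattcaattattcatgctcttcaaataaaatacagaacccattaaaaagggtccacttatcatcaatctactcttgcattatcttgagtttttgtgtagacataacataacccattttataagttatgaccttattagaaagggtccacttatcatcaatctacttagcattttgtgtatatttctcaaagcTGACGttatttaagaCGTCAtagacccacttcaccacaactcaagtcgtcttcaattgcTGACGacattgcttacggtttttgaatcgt

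NPR4 had 3 matches to TGACG. NPR3 had 1 match to TGACG and 1 to TTGAC. A match describes letters in the window and is not a binding site, and these libraries hold no binding data. The gene starts are those of RefSeq. The lengths in the deposited table differ from the nearest RefSeq transcript for every member, for example 1690 bases against 2397 for SARD1. The gene models behind the counts may therefore begin elsewhere.

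ICS1 (AT1G74710; chromosome 1, 28070295 to 28074177, 12 exons) is the entry enzyme of the route. It was at 96.1 and 73.4 RPKM in the glutamate libraries and at 11.9 and 6.81 RPKM in the 0 h libraries. The groups did not overlap, and the 0 h libraries differed more from each other, relative to their level, than the glutamate libraries did. The ratio of mean levels was 9.07, and the log2 change on the RPKM + 1 scale, which understates changes of low genes, was 3.08 ± 0.27 (SE, adjusted p = 0.000835, limma). ICS1 ranked 346 among the tested genes by size of rise. The second isochorismate synthase gene, ICS2 (AT1G18870), lay below the minimum, with 13 and 8 reads in the glutamate libraries and 35 and 24 reads in the 0 h libraries.

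EDS5 (AT4G39030; chromosome 4, 18185437 to 18189224, 12 exons) encodes the plastid exporter of isochorismate. It stood at 11.4 and 12.7 RPKM with glutamate and at 1.78 and 1.73 RPKM at 0 h. The replicates were close and the groups far apart, with a log2 change of 2.24 ± 0.13 (adjusted p = 0.000220, limma). The end of EDS5 overlaps AT4G39040 on the opposite strand by 213 bases. Whether counting used strand is not given in the sources used here. AT4G39040 was at 72.3 and 55.6 RPKM with glutamate and at 61.5 and 60.7 RPKM at 0 h, a log2 change of 0.05 that did not pass (adjusted p = 0.836, limma). The fraction of EDS5 reads also matching elsewhere, as an undefined deposited value was read here, was 0.0747, the highest among the members.

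PBS3 (AT5G13320; chromosome 5, 4267456 to 4271064, 5 exons), the enzyme that joins glutamate to isochorismate, had the largest rise of the members. Its levels were 87.3 and 93.4 RPKM in the glutamate libraries, against 3.61 and 2.14 RPKM in the 0 h libraries, which rested on 205 and 106 reads. The ratio of means was 31.4 and the log2 change 4.58 ± 0.21 (adjusted p = 0.0001, limma), rank 85 of all rises. PBS3 stood at 0.909 and 1.27 times the level of ICS1 with glutamate and at 0.304 and 0.315 times at 0 h. The 2 levels per length overlapped between libraries with glutamate and were well apart at 0 h.

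EPS1 (AT5G67160; chromosome 5, 26797596 to 26799265, 1 exon), which speeds up release of salicylate from the PBS3 product, had a small difference. It was at 3.24 and 3.22 RPKM with glutamate and at 2.44 and 2.02 RPKM at 0 h, from 91 and 105 reads against 100 and 72 reads. Both glutamate values lay above both 0 h values, but the log2 change of 0.39 ± 0.15 did not pass (adjusted p = 0.101, limma). PBS3 exceeded EPS1 by 26.9 and 29.0 times in the glutamate libraries and by 1.48 and 1.06 times in the 0 h libraries.

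**Figure D1:**
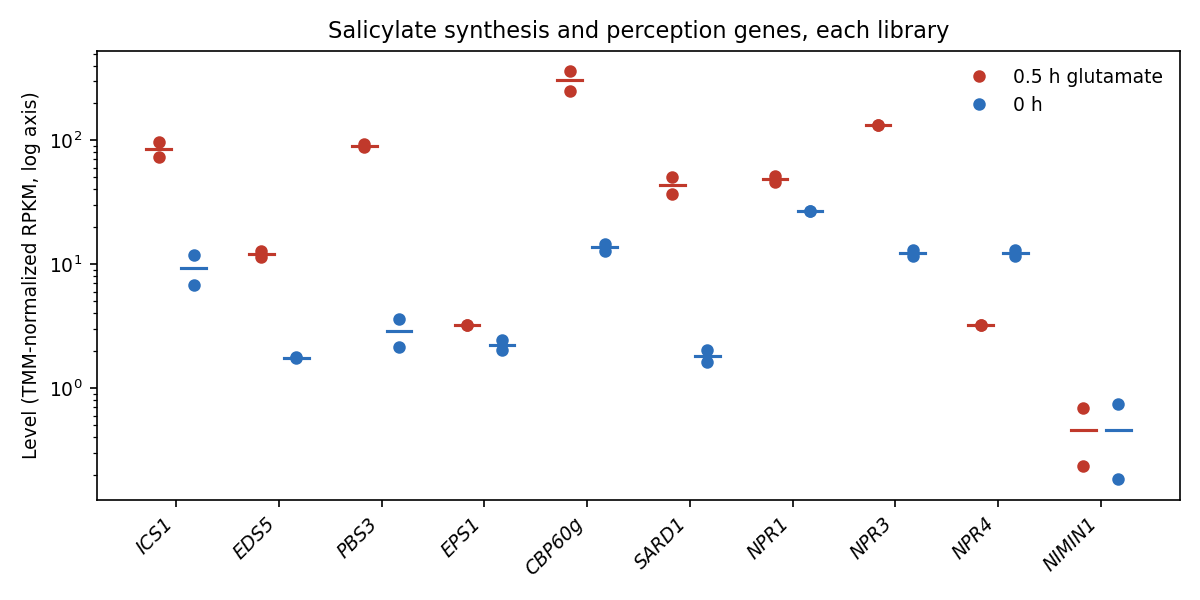
Level of each of the 10 genes in each library (TMM-normalized RPKM, log axis). Points are libraries, with 0.5 h of glutamate on the left of each pair and 0 h on the right, and lines are means of 2. CBP60g reached the highest level, NPR4 is the member that fell, and the points of NIMIN1 overlap between groups.

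CBP60g (AT5G26920; chromosome 5, 9475679 to 9478777, 6 exons) became the most abundant member per length. It was at 248 and 360 RPKM with glutamate and at 12.8 and 14.6 RPKM at 0 h. The glutamate libraries differed from each other by more RPKM than the whole 0 h level, yet both were far above it, with a log2 change of 4.35 ± 0.21 (adjusted p = 0.000115, limma). SARD1 (AT1G73805; chromosome 1, 27744790 to 27749248, 7 exons), the homologue that does not bind calmodulin, was at 36.7 and 50.7 RPKM with glutamate and at 1.61 and 2.01 RPKM at 0 h. Its 0 h values came from 78 and 85 reads and its log2 change was 3.98 ± 0.19 (adjusted p = 0.000120, limma). For both genes replicate 2 was the higher library, with glutamate and at 0 h. CBP60g was 6.77 and 7.11 times as abundant as SARD1 with glutamate and 7.92 and 7.27 times at 0 h, so the balance of the pair stayed within 6.77 to 7.92 while SARD1 and CBP60g rose 24.1-fold and 22.2-fold in mean RPKM. SARD1 overlaps AT1G73790 on the other strand by 640 bases in the RefSeq models. That gene was at 18.4 and 25.8 RPKM with glutamate and at 15.3 and 20.1 RPKM at 0 h and did not pass (adjusted p = 0.352, limma).

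NPR1 (AT1G64280; chromosome 1, 23852748 to 23855658, 4 exons), the co-activator, was the most abundant member at 0 h. It was at 45.6 and 51.3 RPKM in the glutamate libraries and at 26.9 and 26.8 RPKM in the 0 h libraries. Its rise was the smallest that passed, a log2 change of 0.83 ± 0.12 and a ratio of means of 1.81 (adjusted p = 0.00575, limma). With libraries scaled to their totals the median of all tested genes moved to -0.23, and NPR1 changed by 0.64 (adjusted p = 0.0155, limma). In the RefSeq models NPR1 shares 38 bases with the pseudogene AT1G64270 on the opposite strand, which did not pass (log2 change -0.29, adjusted p = 0.292, limma), and contains the noncoding gene AT1G08667, which was not analysed here.

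NPR3 and NPR4 are close paralogues and started level. NPR3 (AT5G45110; chromosome 5, 18228768 to 18231588, 4 exons) was at 133.2 and 133.0 RPKM with glutamate and at 13.0 and 11.5 RPKM at 0 h, a log2 change of 3.34 ± 0.12 (adjusted p = 6.53e-05, limma). NPR4 (AT4G19660; chromosome 4, 10696266 to 10698811, 4 exons) was at 3.21 and 3.20 RPKM with glutamate and at 11.6 and 12.9 RPKM at 0 h, a log2 change of -1.65 ± 0.13 (adjusted p = 0.000561, limma). The NPR4 values rest on 109 and 126 reads with glutamate and on 574 and 560 reads at 0 h. The ratio of NPR3 to NPR4 was 41.5 and 41.6 in the glutamate libraries and 1.12 and 0.893 in the 0 h libraries. NPR3 was also 2.92 and 2.60 times as abundant as NPR1 with glutamate, against 0.483 and 0.431 times at 0 h. These ratios are given as values and were not tested. The deposited length of NPR4, 1725 bases, equals its coding length, whereas that of NPR3, 2358 bases, exceeds its coding length of 1761 bases, so the level of NPR4 per length was taken over its coding part.

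**Figure D2:**
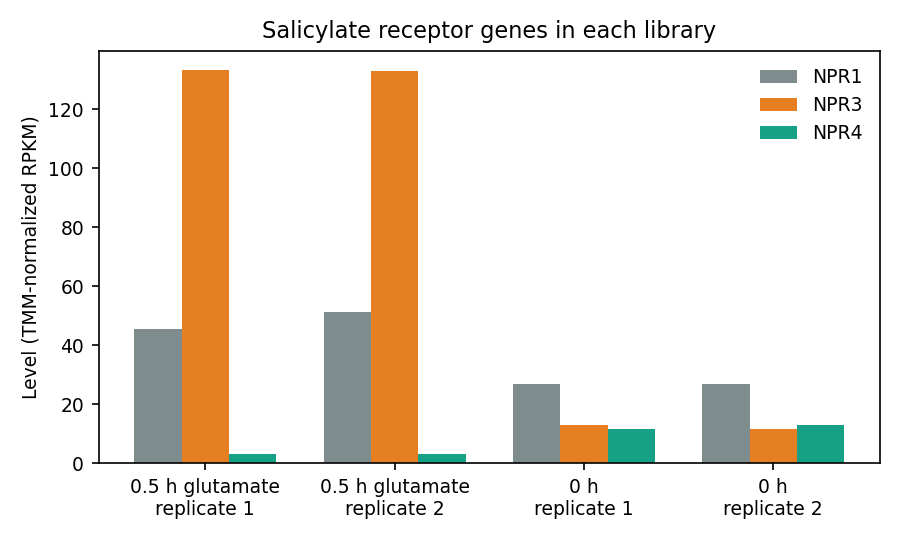
Level (TMM-normalized RPKM, axis from 0) of the salicylate receptor genes NPR1, NPR3 and NPR4 in each of the 4 libraries, the glutamate libraries on the left. NPR3 is the tallest bar at about 133 RPKM in both glutamate libraries, and NPR1 is the tallest at 0 h, where NPR3 and NPR4 lie close together.

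NIMIN1 (AT1G02450; chromosome 1, 497917 to 498539, 1 exon), the NPR1 inhibitor, was near the limit of detection. It had 2 and 8 reads in the glutamate libraries and 11 and 2 reads in the 0 h libraries, or 0.234 and 0.685 RPKM against 0.738 and 0.184 RPKM. The groups overlapped, and 3 reads at its length are worth 0.261 RPKM with glutamate and 0.206 RPKM at 0 h. A fall or a small change of NIMIN1 could not be detected at this depth, and a large rise was not seen.

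In every tested member the groups did not overlap. Both glutamate values lay above both 0 h values in 8 members, as in 29.1% of all tested genes, and below them in NPR4, as in 37.1%. In the glutamate libraries the order by mean level was CBP60g, NPR3, PBS3, ICS1, NPR1, SARD1, EDS5, EPS1, NPR4 and NIMIN1. The library values of PBS3 and ICS1 overlapped in that order, as did those of NPR1 and SARD1, and EPS1 and NPR4 averaged 3.23 and 3.21 RPKM. The 0 h order was NPR1, CBP60g, NPR3, NPR4, ICS1, PBS3, EPS1, SARD1, EDS5 and NIMIN1. At 0 h the values of CBP60g, NPR3, NPR4 and ICS1 overlapped from each gene to the next, as did those of PBS3 and EPS1 and those of SARD1 and EDS5.

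**Figure D3:**
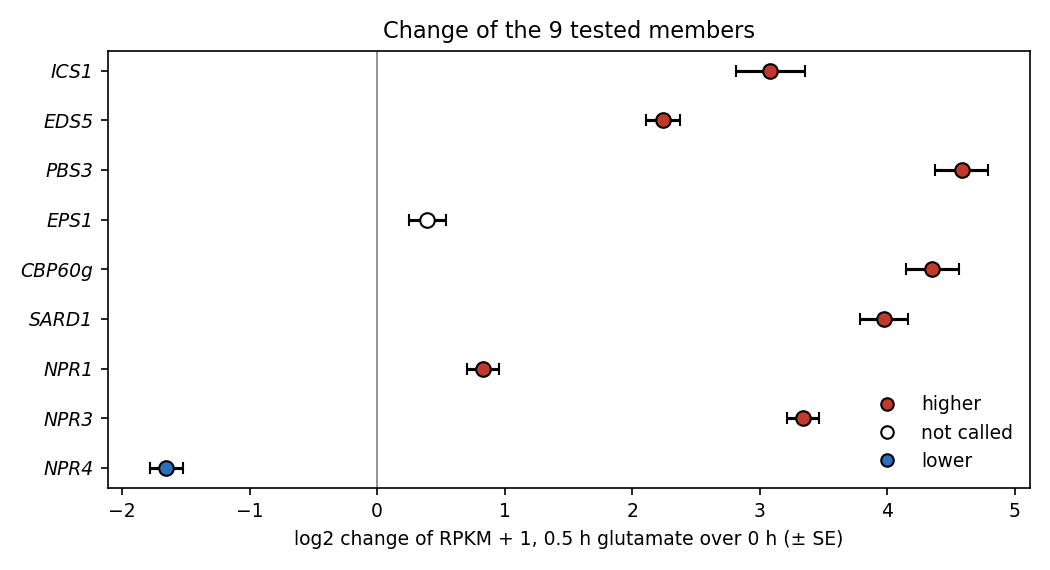
Log2 change of RPKM + 1 for the 9 tested members, 0.5 h of glutamate over 0 h, with standard errors from limma (2 libraries per group). Filled points passed an adjusted p under 0.05. PBS3 rose most, with 4.58, and NPR4 fell, with -1.65.

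Of all other tested genes, the 3 whose centred log2 values lay nearest to those of ICS1 over the 4 libraries were TET8 (AT2G23810), PEPR1 (AT1G73080) and CSLC04 (AT3G28180), at Euclidean distances of 0.126, 0.195 and 0.199. Those nearest to NPR4 were AT2G03550, AT4G15740 and AT5G59260, at distances of 0.0355, 0.0597 and 0.0604.

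A further 72 genes of the pathway, in 10 lists, were read from the same fit. Of these 55 were tested, 19 rose and 15 fell, and their median log2 change was -0.08. Over all tested genes, the background for these counts and those of each list, 16.3% rose and 14.6% fell. The EDS1 node, lipase-like proteins that lie upstream of ICS1 in immunity, rose in all 3 genes. EDS1 (AT3G48090) was at 52.1 and 49.7 RPKM with glutamate and at 14.0 and 11.0 RPKM at 0 h, PAD4 (AT3G52430) at 105 and 122 RPKM against 16.5 and 15.6 RPKM, and SAG101 (AT5G14930) at 78.2 and 85.5 RPKM against 21.8 and 23.4 RPKM. Their log2 changes were 1.95, 2.74 and 1.81. In the list of other synthesis genes 2 of 5 tested rose, PAL2 (AT3G53260) by 1.59 and PAL1 (AT2G37040) by 0.91 on the log2 scale, both phenylalanine ammonia-lyase genes at the entry of the phenylpropanoid route.

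Of 15 tested regulators known to act on ICS1, CBP60g or SARD1, 8 rose and 1 fell. WRKY46 (AT2G46400), an activator of immune genes, was at 484 and 530 RPKM with glutamate and at 3.88 and 3.20 RPKM at 0 h. WRKY70 (AT3G56400), which has both activating and restraining roles in salicylate signalling, was at 18.8 and 21.5 RPKM against 4.02 and 1.99 RPKM. CAMTA3 (AT2G22300), a calmodulin-binding repressor of EDS1, CBP60g and SARD1, was at 64.6 and 59.7 RPKM against 22.3 and 17.4 RPKM, and ANAC019 (AT1G52890), a repressor of ICS1, at 16.7 and 24.6 RPKM against 4.79 and 6.54 RPKM. Activators and repressors thus both occur among the 8. TCP9 (AT2G45680), named after its value was seen, is another of the 8. Its fraction of reads also matching elsewhere, as an undefined deposited value was read here, was 0.846, and its level is uncertain. The list counted 6 rises without 0 h replicate 1, without glutamate replicate 2 and with libraries scaled to their totals, where CHE (AT5G08330) and CAMTA2 (AT5G64220) missed the threshold (adjusted p = 0.0527 and 0.0501, limma). EIL1 (AT2G27050), a repressor of ICS1, fell by 0.73 on the log2 scale, a call lost without 0 h replicate 1 (adjusted p = 0.078, limma) or glutamate replicate 2 (0.131), without the filter on low values (0.0641) and when centred on control genes (0.0749).

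In the CBP60 family beyond the members, 2 of 5 tested genes rose. CBP60a (AT5G62570), a calmodulin-binding member that restrains immunity, was at 168 and 233 RPKM with glutamate and at 23.4 and 27.9 RPKM at 0 h. CBP60f (AT4G31000) was at 23.2 and 35.5 RPKM against 4.83 and 9.74 RPKM. Again replicate 2 was the higher of its pair for both genes, with glutamate and at 0 h. Same-numbered libraries deviated together across all genes (r = 0.6), and for ICS1 replicate 1 was the higher of each pair.

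Among the other NPR and NIMIN genes, NPR2 (AT4G26120), the closest relative of NPR1, was at 13.8 and 16.5 RPKM with glutamate and at 4.94 and 4.97 RPKM at 0 h, and rose by 1.43 on the log2 scale. NIMIN2 (AT3G25882), another NPR1-binding protein, was at 23.6 and 39.1 RPKM against 5.17 and 7.48 RPKM and rose by 2.12. BOP2 (AT2G41370), a developmental relative of NPR1, and NIMIN3 (AT1G09415) fell by 0.68 and 0.48. The call of BOP2 was lost without either glutamate library (adjusted p = 0.0525 and 0.0540, limma), and that of NIMIN3 without any 1 of the 4 libraries (0.0901 to 0.229), without the filter (0.0603), when centred on control genes (0.0531) and with voom weights (0.0611).

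The TGA factors, the DNA-binding partners of the NPR proteins, fell in 6 of 9 cases, and 3 did not pass. TGA7 (AT1G77920) was at 12.3 and 13.8 RPKM with glutamate and at 41.0 and 42.9 RPKM at 0 h, a log2 change of -1.61. TGA1 (AT5G65210), which promotes SARD1 and CBP60g expression, was at 13.1 and 16.1 RPKM against 35.5 and 43.2 RPKM, a log2 change of -1.37. TGA10 (AT5G06839) and TGA9 (AT1G08320), known from anther development, fell by 0.79 and 0.76 on the log2 scale. TGA3 (AT1G22070) lost its call whichever library was left out (log2 changes of -0.46 to -0.61). TGA6 (AT3G12250) lost it without 0 h replicate 2 (-0.48) or either glutamate library (-0.56 and -0.62). TGA9 lost it without 0 h replicate 2 (-0.66) or glutamate replicate 1 (-0.50), and TGA10 without 0 h replicate 1 (-0.66). Without the filter TGA6 and TGA9 did not pass (adjusted p = 0.0599 and 0.0786, limma). TGA3 and TGA6 were named after their values were seen.

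Of 7 tested genes whose enzymes inactivate salicylate, 4 fell and 1 rose. UGT74F2 (AT2G43820), a salicylate glucosyltransferase gene, was at 25.2 and 22.8 RPKM with glutamate and at 116 and 88.5 RPKM at 0 h. SOT12 (AT2G03760), a sulfotransferase gene, was at 24.2 and 24.4 RPKM against 92.5 and 78.2 RPKM. UGT76B1 (AT3G11340), which glucosylates salicylate and other defence compounds, was at 7.68 and 8.26 RPKM against 24.8 and 16.3 RPKM, and GH3.5 (AT4G27260), which conjugates auxin and salicylate to amino acids, at 20.9 and 20.6 RPKM against 51.2 and 33.4 RPKM. These 4 genes changed by -2.04, -1.77, -1.24 and -0.96 on the log2 scale. DLO1 (AT4G10500), a salicylate hydroxylase gene, was low, at 2.56 and 3.39 RPKM with glutamate and at 1.06 and 0.775 RPKM at 0 h, and rose by 1.05 on the log2 scale. Of the methyl salicylate esterases, which release salicylate from its methyl ester, MES9 (AT4G37150) and MES2 (AT2G23600) fell by 1.88 and 1.04 on the log2 scale, out of 3 tested.

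**Figure D4:**
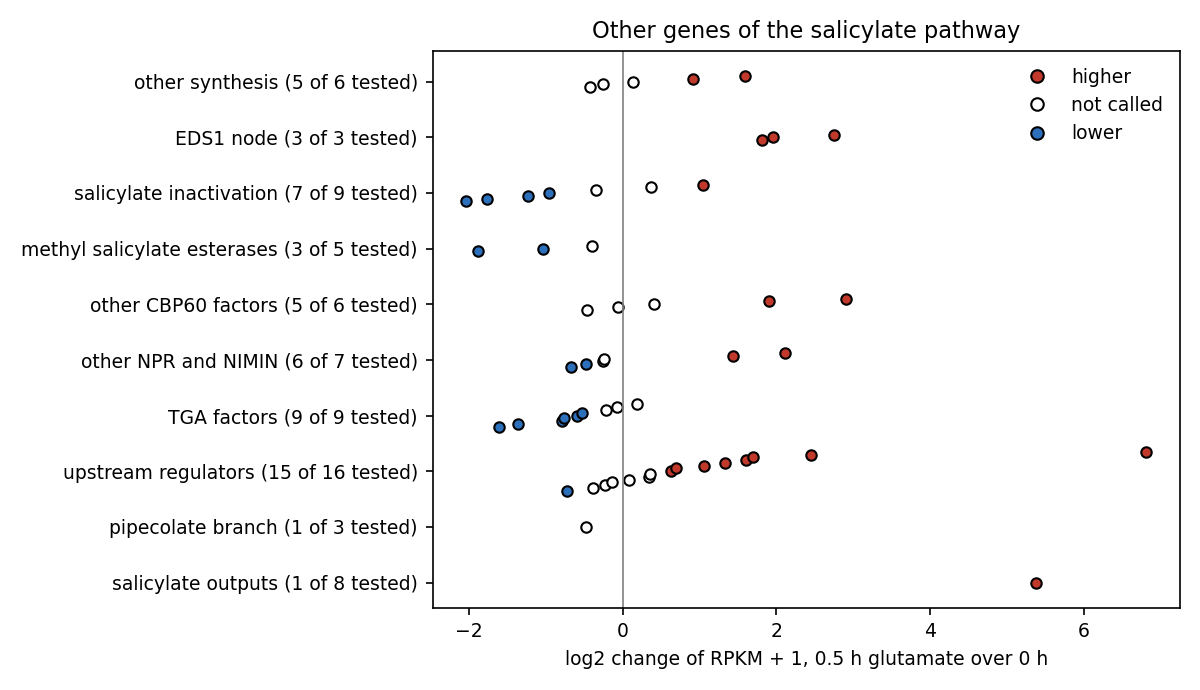
Log2 change of RPKM + 1 for the tested genes of the 10 pathway lists, 0.5 h of glutamate over 0 h. Each point is a gene, red where it rose, blue where it fell and white where it did not pass. The EDS1 node lies to the right of 0, the filled points of the TGA factors and esterases lie to the left, and the 1 tested output gene, GRX480, lies at 5.38.

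Most of the listed output genes of salicylate signalling were barely detected. PR1 (AT2G14610), the usual marker of salicylate action, had 7 and 4 reads with glutamate and 6 and 2 reads at 0 h. PR2 (AT3G57260) had 11 and 7 reads against 15 and 9 reads, and PR5 (AT1G75040) 1 and 0 reads against 0 in both 0 h libraries. Without the filter on low values PR1, PR2 and PR5 did not pass (adjusted p = 0.373, 0.978 and 0.582, limma). At this depth a fall or a small change of these 3 genes could not be detected, and a large rise was not seen. Of the 8 output genes, 7 lay under the minimum. The tested output gene was GRX480 (AT1G28480), the gene of a glutaredoxin that binds TGA factors. It rose by 5.38 on the log2 scale and was at 166 and 165 RPKM with glutamate and at 3.27 and 2.75 RPKM at 0 h. In the branch that makes N-hydroxypipecolate, a mobile defence signal whose genes are also bound by CBP60g and SARD1, SARD4 (AT5G52810) did not pass (log2 change -0.47, adjusted p = 0.186, limma) but did without 0 h replicate 2 (-0.80, adjusted p = 0.0151). FMO1 (AT1G19250) had 27 and 23 reads against 5 and 4 reads, and ALD1 (AT2G13810) 2 and 1 reads against 3 and 2 reads, both under the minimum. Without the filter on low values FMO1 passed, with a log2 change of 0.61 (adjusted p = 0.0108, limma), and ALD1 did not (adjusted p = 0.873, limma). The RPKM + 1 scale understates the change of FMO1, whose ratio of mean levels was 6.53, from few reads. SARD4, FMO1 and ALD1 were named after their values were seen.

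Recovered reads came to 21776595 and 24599752 in the glutamate libraries and to 27674435 and 23669908 in the 0 h libraries. Higher genes made up 52.8% of all calls as deposited and 36.0% with libraries scaled to their totals. The 6 shoot markers summed to 10790 and 9427 RPKM with glutamate and to 15040 and 14260 RPKM at 0 h, with 3 of 6 lower, and the 8 root markers to 58.3 and 49.0 RPKM against 61.8 and 43.4 RPKM, with 1 of 6 tested lower. The 6 guard cell and vascular markers summed to 63.4 and 60.2 RPKM against 64.5 and 50.7 RPKM, with 1 of 6 higher. Markers of shoot and root were both detected, although the root hair marker COBL9 stayed below 0.34 RPKM. The part of shoot markers in the changes above was not tested.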

How the data were processed

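Per the labels' protocols, RNA was extracted with Trizol and made into libraries with an Illumina TruSeq kit. The deposited values are RPKM, which the authors normalized by TMM (trimmed mean of M-values), with a gene length and an undefined fraction named maxMultiRatio, a value that the authors deposited and that was read here as the share of reads also matching elsewhere. Per the submitters' processing notes, TAIR10 and SAMtools were used. Aligner, counter and strand setting: not given in the sources used here. Value times length lies at odd multiples of a lowest level, so reads were recovered as 0.5 times that multiple, less 0.5 read. They were whole within 0.01 for at least 99.9% of genes with a fraction of 0 and for 85.3% to 86.2% of all genes. In a 1 kb gene 3 reads are worth 0.152 and 0.131 RPKM with glutamate and 0.104 and 0.119 RPKM at 0 h, covering counting error only.

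Values were tested as log2(RPKM + 1) with limma 3.58.1 in R 4.3.3, two-sided, with a variance prior that follows intensity, over genes whose mean reached 1 RPKM, and called at an adjusted p under 0.05. The steps were tested on simulated data with 1 fixed spread that was not taken from these libraries. That checks the code and not the calls. The members, lists and tests were chosen with earlier results of these data known. Named are all members, up to 4 rising and 4 falling called genes per list with the largest changes, and PR1, PR2, PR5, TGA1 and ICS2. Other pathway genes, among them CHE and CAMTA2, were named after their values were seen. Sequences and gene models come from RefSeq TAIR10.1, whose gene models can differ from those of the authors. Protein sequences were not used here. There were 13 alternatives: pseudocount, filters, scaling, variance prior, voom weights, a replicate block and each library left out.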

Additional observations from a re-analysis of the deposited data

How the results depend on the processing

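The direction and call of ICS1, EDS5, PBS3, CBP60g, SARD1, NPR1, NPR3 and NPR4 were the same under all 13 alternatives, with log2 changes of 2.72 to 3.44, 2.08 to 2.78, 4.31 to 5.01, 4.09 to 4.62, 3.75 to 4.59, 0.64 to 0.91, 3.15 to 3.44 and -1.93 to -1.58. The member counts stayed at 7 higher and 1 lower, except that with a replicate block EPS1 passed (log2 change 0.39, adjusted p = 0.0297, limma), giving 8 higher. Under its other 11 alternatives EPS1 did not pass (adjusted p = 0.0818 to 0.351), and with a minimum of 5 RPKM it was not tested. Without the filter NIMIN1 was tested and did not pass (log2 change 0.01, adjusted p = 0.987, limma). Same-numbered libraries deviated together (r = 0.60 across genes), but the labels do not tie the numbers to a shared culture or day. With the replicate block, 4445 genes rose and 5280 fell, against 2888 and 2585 without it, and 23 pathway genes fell, against 15. Scaling to library totals gave 4359 lower genes. Of the single-gene results for the 55 other pathway genes, 658 stayed on their side of the threshold, 31 lost and 19 gained a call, and none changed direction with a call. Low read numbers limit NIMIN1 and the PR genes.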
